A study of Nothobranchius furzeri with 15 samples.

Results

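The comparison of 15 pM rotenone with its solvent was analysed in the brain of the turquoise killifish (Nothobranchius furzeri), strain GRZ, in males aged 9 weeks. It holds 9 of the series' 15 libraries: 4 labelled rotenone 15 pM and 5 labelled DMSO. They were chosen by the treatment given for each sample. The first group received rotenone at 15 pM and the other the solvent alone. For all 9 the labels name no transgene or mutation. They state neither the route nor the length of the treatment. Further libraries are labelled rotenone 150 pM. The library with title number 1 among them was left out because its dose is in doubt. It is labelled 150 pM, while the series' description counts 5 libraries per group. Among the fits, only an alternative of all 15 libraries as labelled included it. It also entered the scaling of some CPM values, as stated with them. Since the labels do not tie each library to its own fish, the spread behind the p-values is that between libraries and may be partly technical.

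Rotenone blocks complex I of the mitochondrial respiratory chain, which passes electrons from NADH to ubiquinone and pumps protons across the inner membrane. Neurons rely heavily on that chain for ATP, and dopaminergic neurons are known from rodents to be sensitive to the compound. GRZ is an inbred laboratory strain of an annual fish with a short life. In whole brain, a change in RNA per cell and a change in the number of cells of a type cannot be told apart.

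The count table names genes by identifiers of its own, and 0 of its 26739 identifiers matched the RefSeq gene table used for names. Genes are therefore described by level, length and size of change. The markers of brain cell types could not be looked up. Libraries at 15 pM held 19719081 to 22527848 counts each and DMSO libraries 19689907 to 23210889. Levels are given in CPM, reads of the gene per 1e6 reads, with library sizes corrected by TMM (trimmed mean of M values), which are comparable between libraries for 1 gene but not between genes of different length. 15 pM replicate 3 stood apart from its group. Its mean Pearson correlation of log2 CPM across genes was 0.952 with the other libraries at 15 pM, against 0.963 with the DMSO libraries. The other libraries at 15 pM had 0.972 to 0.977 with their own group and 0.955 to 0.972 with DMSO.

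Rotenone at 15 pM went with a very large rise of 6 genes. They stood at 10.8 CPM or more in every library at 15 pM, and at 6.23 CPM or less in every DMSO library apart from 1 value of 16.8 CPM. Their fitted rises ran from 23.6-fold to 136-fold. All 6 were called as rises by edgeR, as were 3.32% of the tested genes, and their groups did not overlap, as for 15.2% of the tested genes. The next largest rise among called genes was 1.76 on the log2 scale, against 4.56 for the smallest of the 6. Together these 6 genes summed to 1191, 432, 592 and 601 CPM in 15 pM replicates 1 to 4. In DMSO replicates 1 to 5 they summed to 4.11, 6.63, 6.40, 29.7 and 2.41 CPM. The lowest library at 15 pM thus lay above the highest DMSO library, which was DMSO replicate 4. The limit of 16-fold that sets these genes apart was chosen after their values were seen. Called rises of that size numbered 3 without 15 pM replicate 4, and 3 without DMSO replicate 2.

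**Figure D1:**
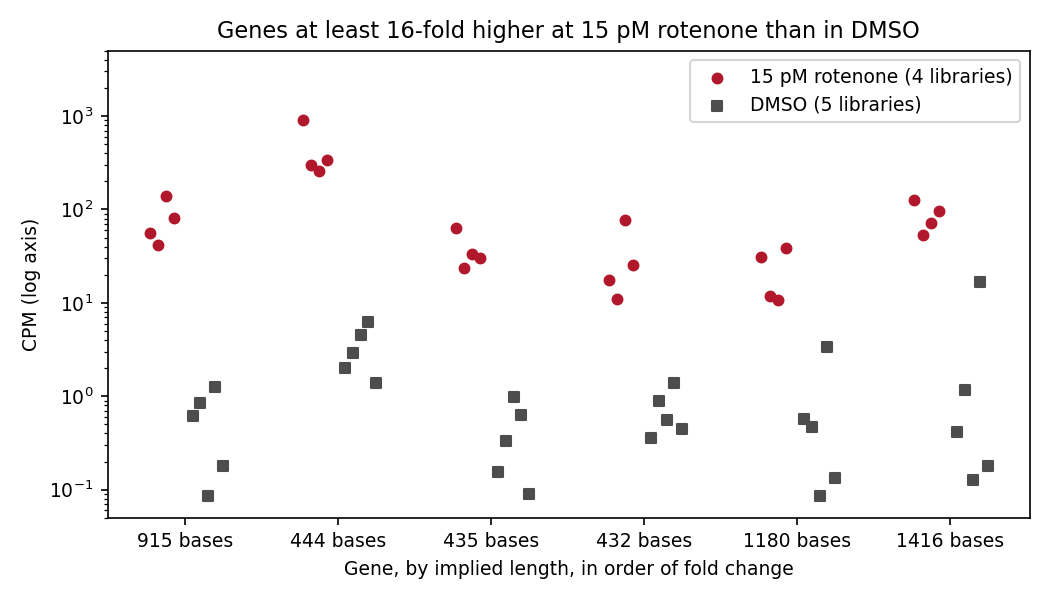
CPM (log axis) of the 6 genes at least 16-fold higher at 15 pM, each point 1 library, with genes ordered by fold change and labelled by implied length. For all 6 genes the 4 libraries at 15 pM lie above the 5 DMSO libraries, and the closest approach is the gene of 1416 bases in DMSO replicate 4, at 16.8 CPM.

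Among called genes with at least 2-fold change and groups that did not overlap, the smallest p of a rise belonged to Nfu_g_1_007507, with an implied length of 444 bases. It had 909, 298, 255 and 338 CPM in 15 pM replicates 1 to 4. In DMSO replicates 1 to 5 it had 2.01, 2.87, 4.57, 6.23 and 1.38 CPM. 15 pM replicate 1 was far above its group, and the lowest library at 15 pM was still far above every DMSO library. The fitted change was 7.04 on the log2 scale (SE 0.57, adjusted p = 0.00395 in edgeR). The reads behind these values numbered 4989 to 18980 per library at 15 pM and 31 to 129 in DMSO.

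The next rise by p was Nfu_g_1_023228, with an implied length of 915 bases. It had 56.0, 41.6, 141 and 81.7 CPM in 15 pM replicates 1 to 4, against 0.617, 0.848, 0.0855, 1.26 and 0.178 CPM in DMSO replicates 1 to 5. Here 15 pM replicate 3 was the highest library, although over the whole profile it correlated better with the DMSO libraries than with its own group. The fitted change was 7.08 on the log2 scale (SE 0.58, adjusted p = 0.00395 in edgeR). In DMSO the gene rested on 2 to 26 reads per library, so its fold change is imprecise there, while 855 to 2747 reads stood behind each value at 15 pM.

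The other 4 of these genes had implied lengths of 435, 432, 1180 and 1416 bases. The gene of 435 bases averaged 37.6 ± 17.6 CPM at 15 pM (SD, n = 4) and 0.437 ± 0.370 CPM in DMSO (n = 5), a change of 6.38 on the log2 scale (adjusted p = 0.00395 in edgeR). The gene of 432 bases averaged 32.7 ± 29.8 CPM at 15 pM and 0.731 ± 0.426 CPM in DMSO, with a change of 5.47 on the log2 scale (adjusted p = 0.0175 in edgeR). The spread at 15 pM was thus nearly as large as the mean for the gene of 432 bases, which reached 76.5 CPM in 15 pM replicate 3. The genes of 1180 and 1416 bases had log2 fold changes of 4.67 and 4.56 (edgeR adjusted p = 0.0252 and 0.0404). In DMSO replicate 4 they reached 3.33 and 16.8 CPM, against at most 0.566 and 1.18 CPM in the other DMSO libraries. DMSO replicate 4 held the highest DMSO value for 5 of the 6 genes. No 1 library at 15 pM led them: replicate 1 was highest for 3 genes, replicate 3 for 2 and replicate 4 for 1.

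These 6 genes were short. Their median implied length was 679 bases, and 4 of the 6 were under 1 kb, against a median of 2704 bases over all 19035 tested genes, of which 3246 were under 1 kb. The lengths are those implied by the deposited RPKM and counts. Whether the 6 share reads with near-identical copies elsewhere in the genome could not be checked.

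The same genes stayed low in the 5 other libraries labelled 150 pM, where they summed to between 1.72 and 6.01 CPM. Nfu_g_1_007507 lay between 0.525 and 2.01 CPM there and was higher at 15 pM than at 150 pM by 8.80 on the log2 scale (SE 0.59, edgeR adjusted p = 1.26e-05 in a fit of 14 libraries, which called 32.2% of its genes between the doses). Nfu_g_1_023228 lay between 0.0865 and 0.673 CPM at 150 pM, a difference of 8.13 on the log2 scale (SE 0.61, edgeR adjusted p = 3.72e-05). All 6 genes passed this test between the doses, with the largest adjusted p of edgeR at 0.00186. The genes were chosen as high in the same libraries at 15 pM, so these p-values are no independent support. The left-out library, labelled 150 pM, summed to 561 CPM over the 6 genes, within the range of sums at 15 pM. It had 179 CPM of Nfu_g_1_007507, below the lowest library at 15 pM, and 199 CPM of Nfu_g_1_023228, above the highest. Its values of the remaining genes lay within their ranges at 15 pM.

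Among falls, the smallest p belonged to Nfu_g_1_012326, with an implied length of 5461 bases. It had 6.52, 8.03, 8.65 and 6.002 CPM in 15 pM replicates 1 to 4, and 16.8, 17.9, 17.4, 16.4 and 15.9 CPM in DMSO replicates 1 to 5. Both groups were tight, and the gap between them was wider than the range of either group. The fitted change was -1.21 on the log2 scale (SE 0.11, adjusted p = 0.00692 in edgeR).

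The next fall was Nfu_g_1_012302, a gene of 273 bases with few reads. It had 1.34, 0.925, 0.972 and 1.16 CPM at 15 pM, from 19 to 28 reads per library. In DMSO it had 3.29, 3.16, 3.38, 3.86 and 2.81 CPM, from 63 to 80 reads. No library at 15 pM reached the lowest DMSO library. The fitted change was -1.58 on the log2 scale (SE 0.17, adjusted p = 0.0127 in edgeR). At 150 pM without the left-out library, Nfu_g_1_012326 averaged 15.9 ± 1.78 CPM and Nfu_g_1_012302 averaged 3.37 ± 0.345 CPM (SD, n = 5), against DMSO means of 16.9 ± 0.784 and 3.30 ± 0.384 CPM (n = 5). Both were lower at 15 pM than at 150 pM (edgeR adjusted p = 0.000154 for each), in a fit that called 32.2% of its genes. These 2 genes were chosen as low in the same libraries at 15 pM, so the p-values are no independent support. The left-out library had 9.81 CPM of Nfu_g_1_012326 and 2.71 CPM of Nfu_g_1_012302. Both values lay above every library at 15 pM and below every DMSO library, the second close to the lowest DMSO value.

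Across all genes, 1469 of 19035 passed an adjusted p of 0.05 in edgeR, a share of 7.72%. Of these, 632 genes rose (3.32% of the tested genes) and 837 fell (4.4%). Falls were larger than rises. The median of the rises was 0.31 on the log2 scale, with quartiles of 0.26 and 0.38, and 586 of them were under 1.5-fold. The median of the falls was -0.53, with quartiles of -0.81 and -0.37, and 478 were under 1.5-fold. Rises of at least 2-fold numbered 15 (0.0788% of the tested genes) and falls of that size 124 (0.651%). No adjusted p was below 0.00395. An unadjusted p under 0.05 was reached by 5342 genes.

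**Figure D2:**
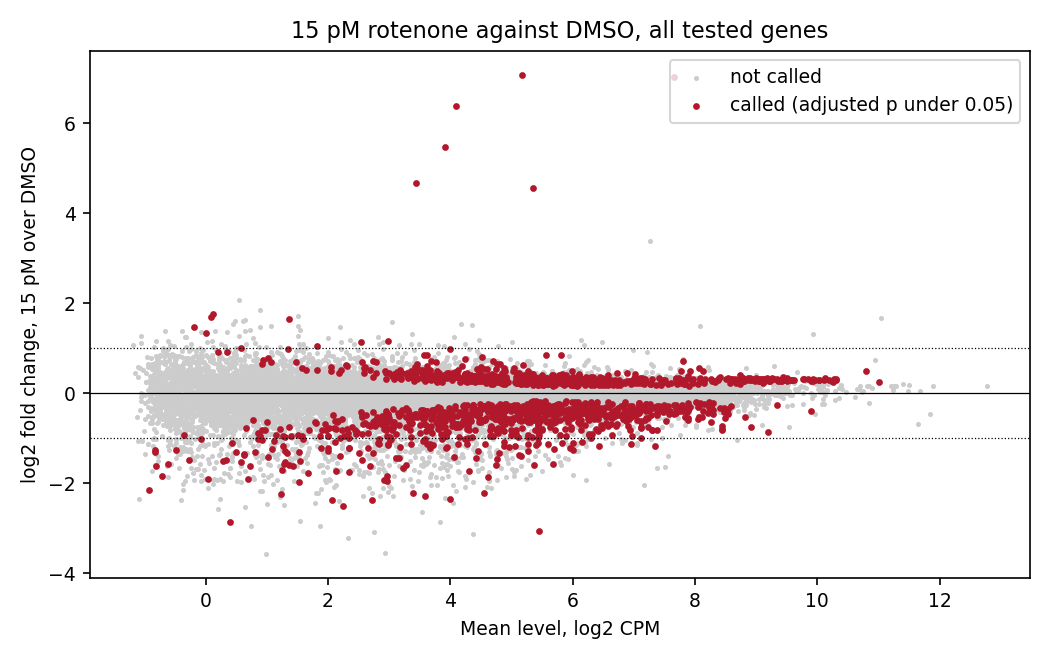
log2 fold change of 15 pM over DMSO against mean log2 CPM, each point 1 of 19035 tested genes, with the 1469 called genes in red and dotted lines at 2-fold. The 6 large rises lie above 4 on the log2 scale, most other called rises lie below 1, and called falls reach -3.06.

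Rises of more than 2-fold other than the 6 above were few and at low levels. These 9 genes had mean levels between 1.22 and 11.2 CPM at 15 pM and between 0.429 and 5.02 CPM in DMSO, with log2 fold changes from 1.01 to 1.76. For 7 of the 9 the groups did not overlap, against 15.2% of all tested genes, and this too describes genes chosen on the same libraries. Another gene with a larger rise, 3.38 on the log2 scale, did not pass (edgeR adjusted p = 0.0804). The mean levels of the 617 rises under 2-fold ranged from 1.43 to 2259 CPM at 15 pM, with a median of 50.8 CPM at 15 pM and 41.9 CPM in DMSO.

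The 124 falls of at least 2-fold had a median level of 4.02 CPM at 15 pM and 10.3 CPM in DMSO. They varied more at 15 pM than in DMSO, with a median coefficient of variation of 0.393 at 15 pM and 0.210 in DMSO. For 122 of them the groups did not overlap, against 15.2% of all tested genes. The same libraries chose these genes, so nothing is read from that count. In 23 of the 124 genes the mean at 15 pM was below 1 CPM, against 7 genes with a DMSO mean below 1 CPM. The 11 falls of at least 4-fold had log2 fold changes from -3.06 to -2.14, with median levels of 1.95 CPM at 15 pM and 10.06 CPM in DMSO. The 713 smaller falls had medians of 31.8 CPM at 15 pM and 44.2 CPM in DMSO.

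The libraries at 15 pM did not contribute alike to the falls. Relative to the mean of the DMSO libraries, the 837 falls had a median log2 difference of -0.65, -0.41, -0.43 and -0.58 in 15 pM replicates 1 to 4. 15 pM replicate 1 was the lowest of the 4 in 487 of these genes (58.2%), and it was the lowest in 29.8% of all tested genes. For the falls of at least 2-fold the medians were -1.80, -0.999, -0.87 and -1.58, so that replicates 1 and 4 were far lower than replicates 2 and 3. The medians of the rises were more even, at 0.27, 0.27, 0.34 and 0.35. Which library at 15 pM was highest was uneven among the rises, however. Replicates 1 to 4 were the highest of the 4 in 13.6%, 7.12%, 40.03% and 39.2% of the rises. Over all tested genes these shares were 19.98%, 18.6%, 41.9% and 19.5%. Replicate 4 was thus highest more often among the rises than among all tested genes, and replicates 1 and 2 less often. These genes were called on the same libraries, so the values describe them and do not test them.

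Among the DMSO libraries, replicate 1 lay farthest from 15 pM. Against the other DMSO libraries it had a median log2 difference of 0.18 over the 837 falls, while the remaining DMSO libraries lay between -0.11 and -0.0051. It was the highest DMSO library in 576 of the 837 falls (68.8%) and in 100 of the 124 falls of at least 2-fold (80.6%), against 24.7% of all tested genes. Without it the median log2 fold change of the 124 genes was -1.20, against -1.30 with it. The called falls of at least 2-fold numbered 16 without it. They numbered 4, 28, 9 and 95 without DMSO replicates 2, 3, 4 and 5, so a drop was not particular to replicate 1.

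**Figure D3:**
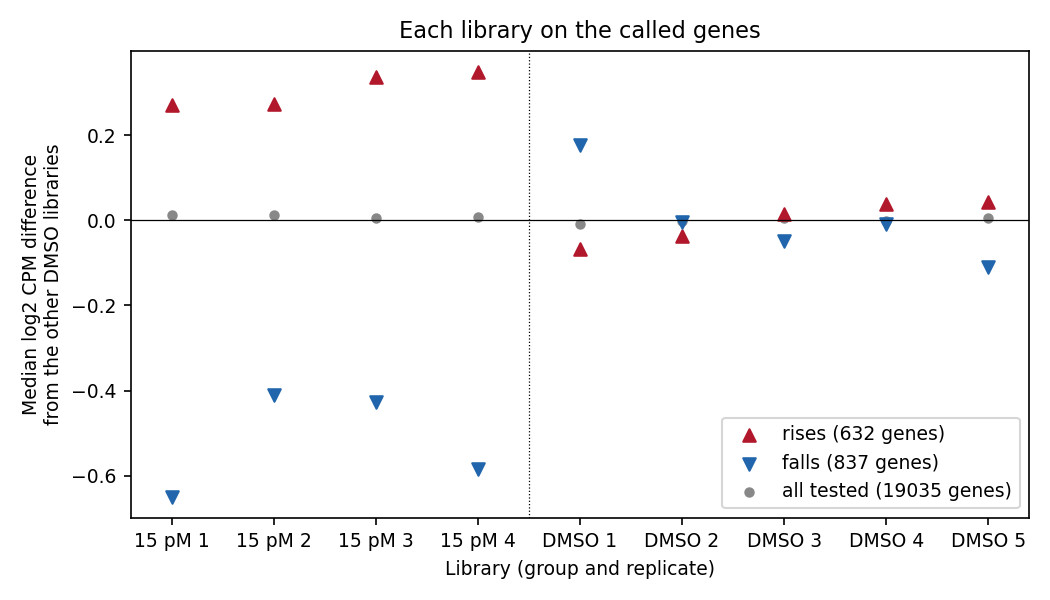
Median log2 CPM difference of each library from the mean of the other DMSO libraries, over the called rises (triangles up), the called falls (triangles down) and all tested genes (circles). The 4 libraries at 15 pM lie between -0.65 and -0.41 for the falls, and DMSO replicate 1 is the DMSO library farthest above 0.

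Rises and falls were not spread alike over gene lengths. Sorted by implied length, the tested genes were cut into 4 classes of equal size. In the longest class, from 4713 bases, 68 genes rose and 314 fell. It held 37.5% of all falls and 10.8% of all rises, against 25% of the tested genes. In the 3 shorter classes 176 rose and 153 fell, 222 rose and 219 fell, and 166 rose and 151 fell, from the shortest up. The falls of the longest class were smaller than those of the shortest, with median log2 fold changes of -0.43 and -0.68, and 25 of the 314 reached 2-fold. Of all falls of at least 2-fold the longest class held 20.2%, below its 25% of the tested genes. The 2 shortest classes held 29.8% and 31.5% of them. With each library's trend of log2 CPM with length removed, the longest class held 146 rises and 179 falls.

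The length pattern differed between the libraries at 15 pM. Genes of the longest class had a median log2 difference from the DMSO mean of -0.13, -0.068, -0.016 and -0.099 in 15 pM replicates 1 to 4, and shorter genes one of 0.059, 0.046, 0.014 and 0.045. DMSO replicate 1 had 0.052 for long genes and -0.027 for shorter ones, and DMSO replicate 5 had -0.061 and 0.029. Spearman's rho of log2 CPM with implied length, taken across genes within each library, averaged 0.360 ± 0.0166 at 15 pM (SD, n = 4) and 0.381 ± 0.00733 in DMSO (n = 5). The difference of -0.0205 did not pass a two-sided exact permutation test (p = 0.0635, adjusted 0.190 over 4 tests, where the smallest p of this design is 0.0159).

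**Figure D4:**
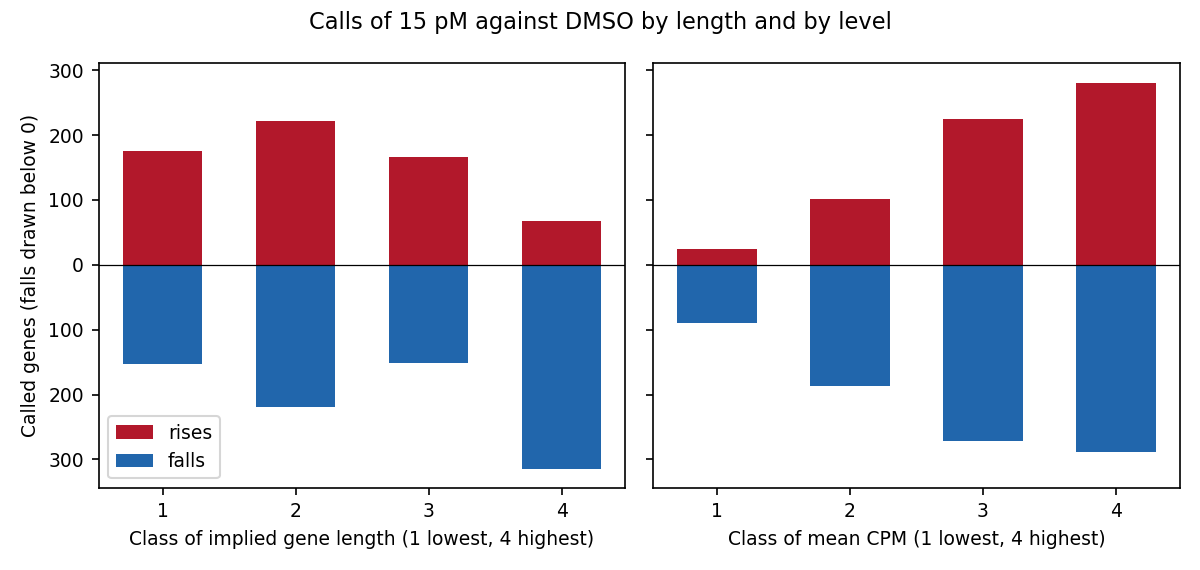
Number of called genes by class of implied length (left) and class of mean level (right), rises drawn above 0 and falls below. In the longest class 314 genes fell and 68 rose, and in the lowest class of level 90 fell and 24 rose.

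Direction also varied with level, taken as the mean log2 CPM that edgeR gives over the 9 libraries. The limits of the classes are printed as mean CPM. In the lowest of 4 classes, up to 5.00 CPM, 24 genes rose and 90 fell, and 2.395% of the genes were called. In the next class 102 rose and 187 fell, and in the class above it 225 rose and 272 fell. In the highest class, from 51.4 CPM, 281 rose and 288 fell, and 11.96% were called. Of the 124 falls of at least 2-fold, 51 were in the lowest class and 9 in the highest.

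The called genes were set beside the same genes at 150 pM in the fit of 14 libraries, in which both doses share the DMSO libraries. Over the 632 rises, the median change against DMSO was 0.31 at 15 pM and -0.0025 at 150 pM, on the log2 scale. The 837 falls had medians of -0.52 at 15 pM and 0.087 at 150 pM. Over all tested genes the medians were 0.018 and -0.0056. The called genes were chosen for their change at 15 pM. A larger change there than at 150 pM follows in part from that choice.

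How many genes were called changed with almost any 1 library. It was 4 without 15 pM replicate 4, 296 without replicate 1, 659 without replicate 2 and 4664 without replicate 3. It was 186, 10, 382 and 85 without DMSO replicates 1, 2, 3 and 4, and 1231 without DMSO replicate 5. The number of genes with an unadjusted p under 0.05 moved less, between 4179 and 7530. Of the 1469 calls, 4 passed with the same direction in all 9 of these fits. They were Nfu_g_1_007507, Nfu_g_1_023228, the rise of 435 bases and Nfu_g_1_012326. Nfu_g_1_012302 failed in 1 of the 9 fits, without 15 pM replicate 4 (log2 fold change -1.60, edgeR adjusted p = 0.0695). In the same fits the edgeR adjusted p went up to 0.0695 for the rise of 432 bases, to 0.0852 for that of 1180 bases and to 0.111 for that of 1416 bases. DESeq2 and limma voom were run on all 9 libraries, never with a library left out, and called 3120 and 5104 genes. Of the 1469 calls, 1461 passed in the same direction in both tools, all 632 rises among them.

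**Figure D5:**
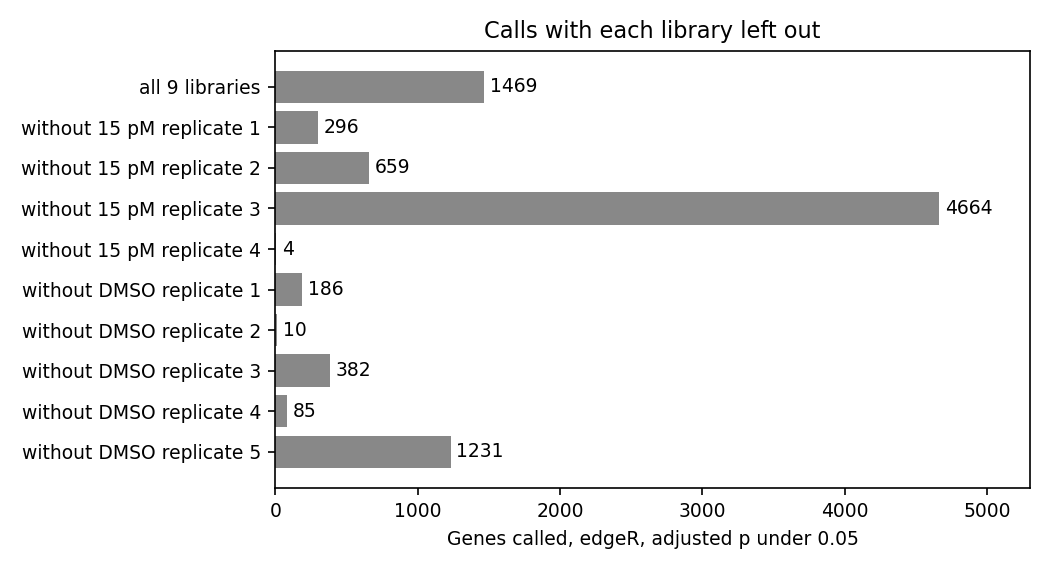
Number of genes called by edgeR with all 9 libraries (1469) and with each library left out in turn. The bars run between 4 and 4664, and 8 of the 9 settings lie below the full comparison.

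No difference between the groups in a property of whole libraries passed with all 9 libraries. 15 pM libraries had 18620 to 19142 genes with at least 10 counts, and DMSO libraries 18830 to 19144 (difference of means -193, two-sided exact permutation p = 0.175, adjusted 0.233). The 50 most abundant genes took 10.06% ± 0.879 of the counts at 15 pM (SD, n = 4) and 9.20% ± 0.394 in DMSO (n = 5; exact permutation p = 0.0952, adjusted 0.190). Total counts gave an exact permutation p of 0.492 (adjusted 0.492). Without 15 pM replicate 3, the differences in genes with at least 10 counts, in the share of the 50 most abundant genes and in the length trend each reached an exact permutation p of 0.0357 (adjusted 0.0476). That is the smallest p possible with that library left out. Without any other single library none of these differences passed (smallest adjusted p of the exact permutation tests 0.171). The median over genes of the SD of log2 CPM was 0.197 among libraries at 15 pM and 0.143 among DMSO libraries.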

How the data were processed

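The authors deposited raw gene counts and an RPKM table of the same libraries. Per the labels' protocols the library kit was TruSeq RNA v2, an unstranded kit, so that a gene and an antisense neighbour share reads. The submitters' processing notes list featureCounts 1.4.6-p4, STAR 2.4.1d and CASAVA 1.8.2. Genome build and annotation were not given in the sources used. The deposited RPKM values matched the counts only when library totals were taken in turn down the rows (median largest deviation 4.04e-05 log2 units in 6891 genes, against 0.237 with each library's own total). They were used only to derive gene lengths. In R 4.3.3, edgeR 4.0.16 (filterByExpr, TMM, robust quasi-likelihood F test, 9 libraries, Benjamini-Hochberg over 19035 genes, threshold 0.05) gave the calls. Each SE was taken from the fold change and its F value. Fold changes had a 95% half-width of 1.22-fold at the median gene. The fit was also run on simulated counts without a length trend or a divergent library, so that run does not bear on the calls made here. Named genes were the 2 rises and 2 falls of smallest p that averaged 0 or more in log2 CPM, with a 2-fold change and no overlap of groups. The members and rules were chosen with earlier results of these data known. Gene lists were not run, since identifiers have no names. Library values were compared by exact permutation tests over 4 tests in scipy 1.17.1. DESeq2 1.42.0, limma 3.58.1, other scalings and filters, fits with more libraries, a length correction, a block on title numbers and leaving out each library were alternatives.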

Additional observations from a re-analysis of the deposited data

Results flagged for a closer look

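Dixon's gap test singled out 1 library in 4 of 32 groups of values (about 1 in 20 such groups would be by chance if values were normally distributed). The groups are not independent, since the sum of the 6 large rises contains genes that were also tested singly. Nfu_g_1_007507 stood at 909 CPM in 15 pM replicate 1, against 255 to 338 CPM in the other libraries at 15 pM. The rises of 1180 and 1416 bases stood at 3.33 and 16.8 CPM in DMSO replicate 4, against at most 0.566 and 1.18 CPM in the other DMSO libraries, and the sum of the 6 large rises was 29.7 CPM in that library, against 2.41 to 6.63 CPM in the other DMSO libraries. The library that was left out, labelled 150 pM, held signal of the same 6 genes, at a sum of 561 CPM, above the 2.41 to 29.7 CPM of the DMSO libraries.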

How the results depend on the processing

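With each library left out in turn, calls ranged from 4 to 4664, rises from 3 to 1984, falls from 1 to 2680, 2-fold rises from 3 to 20, 2-fold falls from 1 to 890, rises of at least 16-fold from 3 to 7, and the longest class from 0 to 225 rises and 1 to 993 falls. DESeq2 called 3120 genes (1239 rises, 1881 falls, 29 and 429 at 2-fold, 150 and 725 in the longest class). Limma voom called 5104 (2276 rises, 2828 falls, 28 and 764 at 2-fold, 246 and 1070 in the longest class). A fit of 3 groups and 14 libraries called 3516 (1517 rises, 1999 falls, 28 and 443 at 2-fold, 173 and 730 in the longest class), and one of all 15 libraries as labelled 2728 (1182, 1546, 23, 278, 135 and 543). Rises of at least 16-fold numbered 6 with DESeq2, 7 with limma voom, 6 with 14 libraries and 3 with 15. Over 19 alternatives to the edgeR fit of 9 libraries, the rises of 432, 1180 and 1416 bases were called in 15, 13 and 9. The cause was not tested. With the length trend removed the longest class held 146 rises and 179 falls. The RLE and upper-quartile scalings and both filters kept every count within 1.5 times.

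DMSO and 15 pM libraries share the title numbers 2 to 5. The deviations of same-numbered libraries correlated between -0.156 and -0.0027. These 4 values are too few to decide whether the numbers pair the libraries. With that number as a replicate block, edgeR, the only tool run with it, called 0 genes, with 3902 at an unadjusted p under 0.05 and a smallest adjusted p of 0.142. The block also leaves less data from which to estimate the spread between libraries. Under it, the genes called without the block had median log2 fold changes of 0.30 for the rises and -0.49 for the falls. None of the 4 libraries at 15 pM correlated best with its own number.

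The differences in genes with at least 10 counts, in the share of the 50 most abundant genes, in total counts and in the length trend ranged from -311 to -137 genes, from 0.490 to 1.21 percentage points, from -1097910 to -97451 counts and from -0.0283 to -0.0162 without single libraries. That in mean correlation within the group ranged from -0.0155 to 0.0093. With 19 to 28 reads behind a value, as for Nfu_g_1_012302 at 15 pM, counting error limits what depth can show.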
